A study of Mus musculus with 6 samples.

Results

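The TNF superfamily comprises the ligands related to tumour necrosis factor and the receptors that bind them. Genes were taken as members when the symbol began with Tnfsf or Tnfrsf followed by a number, or was Tnf, Lta, Ltb, Ltbr, Fas, Fasl, Cd27, Cd40, Cd40lg or Cd70. The rule used names and no measured value, but the members were chosen with earlier results of these data known. It found 41 members among the 24422 genes of the count tables, 17 ligands and 24 receptors. Of these, 29 had at least 10 counts in 3 or more of the 6 libraries, as did 15208 genes of the whole table.

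RNA was sequenced from whole kidneys of C57BL/6 mice at postnatal day 60, all fed an iron-sufficient diet of 220 ppm. The 3 control libraries came from mice labelled wild type. The other 3, called knockout libraries, were labelled TfR1KO;KspCre with the genotype Tfr1f/f;KspCre: the transferrin receptor gene Tfrc is floxed, and Cre expression comes from the Ksp-cadherin promoter, a driver of distal tubule segments. Recombination is thus confined by the driver to a portion of the epithelium, whereas the RNA came from every cell of the organ. Each group had 3 biological replicates, and the labels do not say whether the wild type mice carried floxed alleles or Cre.

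Ligands of this family are mostly trimeric proteins on the cell surface that can be shed, and many are made by leukocytes. Some receptors carry an intracellular death domain, through which they can recruit caspases or kinases, while others bind TRAF adaptors directly and feed into the canonical or the alternative NF-kB pathway. Decoy receptors bind a ligand without passing the signal on. In the injured kidney the family is known for tubular cell death and inflammation and, through BAFF, lymphotoxin and CD40, for supporting lymphocytes.

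Total counts ranged from 11501053 in knockout 3 to 21001341 in control 1. Tfrc, the targeted gene, had 2783, 2856 and 1032 counts in the control libraries, 4368, 1713 and 530 in the knockout libraries, and its log2 fold change was -0.11 (SE 0.62, edgeR adjusted p = 0.911). Knockout 1 lay above all 3 controls, so counts over the whole gene in whole kidney gave no check of the labels. Control 2 stood apart in sex-linked transcripts, with 52 Xist counts and 3980 counts over 4 Y-linked genes, against at least 10458 and at most 5 in each of the other 5 libraries. Knockout 1 was the closest of the knockouts to the controls in most marker lists given below. Fewer cells of a type and less RNA per cell cannot be told apart in bulk samples.

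Of the 28 members that entered the genotype test (edgeR's quasi-likelihood test, Benjamini-Hochberg adjustment over 15171 genes), 10 were called higher and 1 lower in knockout kidneys at an adjusted p under 0.05. Ligands that rose were Ltb, Tnfsf13b and Tnfsf8. Receptors that rose were Tnfrsf1b, Tnfrsf9, Cd40, Tnfrsf11a, Tnfrsf12a, Tnfrsf10b and the decoy Tnfrsf11b, and the only member that fell was Tnfrsf21, the most abundant family transcript of the control kidney. Log2 fold changes of the called members ran from -1.20 to 5.77.

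The share of tested members called was 39.3%, beside 17.2% of all genes tested. Calls toward higher values took 35.7% of members, beside 10.6% of all genes, and calls toward lower values took 3.57%, beside 6.64%. The median log2 fold change was 0.94 over the tested members and 0.02 over all tested genes, and 24 of the 28 members lay above 0, against 51.5% of all genes. Tnfsf8 and Tnfrsf9 had 10 counts in no control and passed the expression filter through the knockout libraries alone. Over the 26 other tested members, 8 were called higher and 1 lower, with a median of 0.87. All 3 knockouts lay above all 3 controls for 17 of the 28 members, beside 23.8% of all genes, and below them for 1, beside 22.2%. Tnfsf8 and Tnfrsf9 are among these 17 and among the 24 above 0.

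The calls changed with single libraries. The edgeR count of called members was 0 without control 1, control 2, control 3 or knockout 3. Over all genes, calls in the same fits numbered 0, 0, 0 and 2. In those fits 17 of 32, 14 of 32, 16 of 33 and 19 of 32 members passed the threshold of 0.05 without adjustment, beside 31.0%, 27.4%, 30.9% and 28.9% of all genes tested. Of the members tested there, 6, 6, 7 and 6 had 10 counts in no control and entered through the knockouts. Among the 26 others the numbers were 13, 10, 10 and 13. Without knockout 2 the count of calls was 3 (Ltb, Tnfrsf12a and Tnfsf13b), where 0.474% of all genes were called. Without knockout 1 all 11 stayed called and Tnf and Lta joined them, 13 of 30 members, where 34.4% of all genes were called. Tnf and Lta, like Tnfsf8 and Tnfrsf9, had 10 counts in no control, and 9 of the 26 other members were called in that fit. The fold change of each called member kept its direction in every fit it entered, with Tnfrsf9, Tnfsf8 and Tnfrsf11b not in the fit that required 10 counts in every library. Scaling by library size alone moved the median of all genes to 0.29 and the share of higher calls among all calls from 61.4% to 81.8%. With that scaling 12 members were called, all of them higher, beside 3646 calls over the 15171 genes tested.

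**Figure D1:**
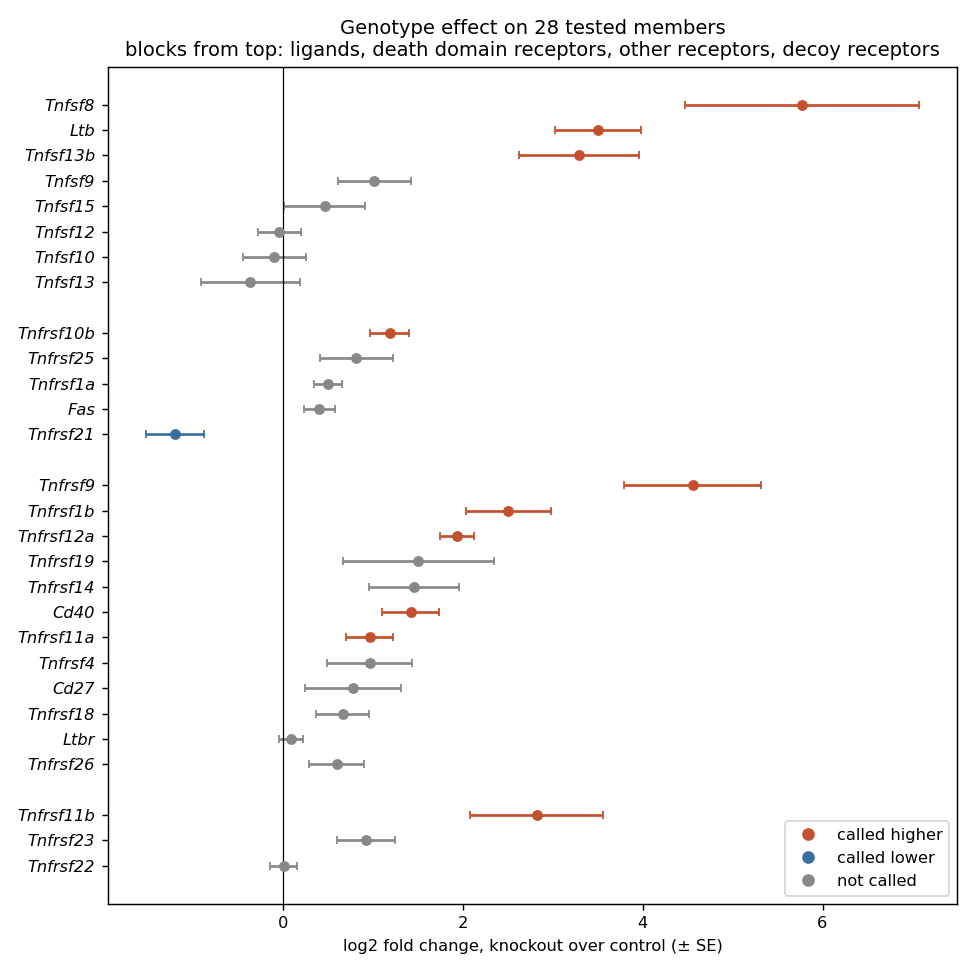
Log2 fold change, knockout over control, with its SE for the 28 tested members on the x axis, one gene a line, in blocks of ligands, death domain receptors, other receptors and decoys. Orange points were called higher, the blue point lower and grey points not called. The 3 called ligands stand at 3.29 or more, and Tnfrsf21 is the only called member left of 0.

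Lymphotoxin beta (Ltb, chr17:35331384-35333265 on mm9, plus strand) is the membrane anchor of the lymphotoxin heterotrimer, which organises lymphoid tissue. It stood at 0.597, 0.882 and 0.720 CPM (counts per 1e6 counts of the library, TMM-normalised) in the controls and at 5.50, 13.7 and 5.90 in the knockouts. The groups did not overlap, and knockout 2 was highest by more than 2 times. Its log2 fold change was 3.51 (SE 0.48, adjusted p = 0.027), an 11.4-fold difference. The receptor of lymphotoxin heterotrimers, Ltbr, was far more abundant and level. It measured 90.1, 94.9 and 93.1 CPM in controls and 111, 92.1 and 91.0 in knockouts, with a log2 fold change of 0.08 (SE 0.13, adjusted p = 0.672), whose direction turned without knockout 1 (-0.03).

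Ltb, Tnf and Lta lie side by side on chromosome 17, with gaps of 3061 and 1158 bases between them. Tnf, the founding ligand of the family, had 2, 2 and 8 counts in controls and 10, 38 and 64 in knockouts. It met the count rule of the members but not the filter of the main test, and with at least 10 counts in 3 libraries as the filter its log2 fold change was 3.36 (adjusted p = 0.0586). That value did not pass, and it depended on single libraries: without knockout 1 it was 3.84 (adjusted p = 0.0125), and without knockout 3 it was 2.36 (adjusted p = 0.145). Without control 3 it was 4.385 (adjusted p = 0.103). Lta, which forms both a soluble homotrimer and the heterotrimer with Ltb, had 2, 1 and 3 counts in controls and 5, 18 and 7 in knockouts.

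BAFF (Tnfsf13b, chr8:10006843-10035441, plus strand), the survival factor of B cells, was at 1.79, 2.12 and 2.28 CPM in controls and at 8.88, 41.8 and 9.96 in knockouts. The groups were apart, yet knockout 2 stood more than 4 times above the other two knockouts. The log2 fold change of 3.29 (SE 0.67, adjusted p = 0.032) was 2.19 without that library (adjusted p = 0.0486), and with limma-voom it was 2.96 and not called (adjusted p = 0.0632). Its receptors were barely measured. Tnfrsf13b (TACI) had 1, 0 and 1 counts in controls and 5, 15 and 4 in knockouts. Tnfrsf13c (BAFF receptor) had 0, 3 and 4 against 11, 28 and 3. Tnfrsf17 (BCMA), found on plasma cells, had 1, 2 and 4 against 2, 17 and 1. Knockout 2 was the highest library for all 3 of these receptors.

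CD30 ligand (Tnfsf8, chr4:63492342-63522381, minus strand), carried by activated lymphocytes and myeloid cells, had 0, 2 and 1 counts in controls and 20, 164 and 14 in knockouts. Knockout 2 held most of these counts. The pooled ratio of knockout to control was 66.5, with a 95% counting interval of 22.4 to 325.3 that covers counting error only. The fitted log2 fold change was 5.77 (SE 1.30, adjusted p = 0.035). It was 4.02 without knockout 2 (adjusted p = 0.0658) and 6.63 without control 2 (adjusted p = 0.1205). Tnfrsf8, its receptor CD30, had 0, 1 and 0 counts in controls and 3, 10 and 0 in knockouts, and did not pass the filter of the main test.

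The other 5 tested ligands were not called. Tnfsf9 (the CD137 ligand) measured 1.74, 0.940 and 1.02 CPM in controls and 3.34, 1.81 and 2.38 in knockouts, and its log2 fold change of 1.01 had an adjusted p of 0.115. Tnfsf15 (TL1A), a product of endothelial and myeloid cells, was at 0.46 (adjusted p = 0.483) and turned to -0.16 without knockout 2. Tnfsf10 (TRAIL) was the ligand with the highest level, at 93.1, 110 and 41.2 CPM in controls and 75.7, 65.0 and 88.6 in knockouts, with overlapping groups. Its log2 fold change was -0.10 (SE 0.35, adjusted p = 0.859) and turned to 0.19 with library size scaling. Tnfsf12 (TWEAK) was at 14.9, 15.0 and 24.4 CPM in controls and 16.8, 16.6 and 19.4 in knockouts, at -0.04 (SE 0.24, adjusted p = 0.913), which turned to 0.23 with that scaling. Tnfsf13 (APRIL) was at -0.36 (adjusted p = 0.653), and at -1.05 without knockout 3 (adjusted p = 0.204). Counts of Tnfsf12 and Tnfsf13 are uncertain, because only 51.0% and 48.1% of the 50-base words of their longest transcripts occur in no other gene, the rest being shared with the read-through locus BC096441.

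A common form of the NF-kB consensus motif is GGGA, any 4 bases and CC. This string was sought on both strands in RefSeq promoter windows (GRCm38.p6, 250 bases before to 50 after a start, placed on mm9 by exact match). Windows were found for 31 of the 41 members. The motif was in 9 of these 31 genes, beside 22.9% of all 27025 genes with a window. Among called members 2 of 8 with a window had it, and among tested members not called 2 of 13. The 8 include Tnfrsf9, which had the motif, and Tnfsf8, which did not. Both of these passed the expression filter through the knockouts alone. The called genes with a match are shown, as 70 bases around it in the direction of transcription with the match in capitals, the first lying at chr17:35331335-35331404 and the second at chr4:150302036-150302105. In Ltb the match is on the strand opposite to the gene, and in Tnfrsf9 the same bases match on both strands. Tnfrsf9 had another window, at chr4:150294014-150294313, without a match. The matched window belongs to a later start, and both lie inside the gene's span of chr4:150288671-150320211.
Ltb: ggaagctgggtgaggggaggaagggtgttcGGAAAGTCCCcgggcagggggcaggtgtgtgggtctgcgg
Tnfrsf9: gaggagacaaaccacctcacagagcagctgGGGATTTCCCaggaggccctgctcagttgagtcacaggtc
A string match of this kind is a description of the sequence and not a bound site.

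**Figure D2:**
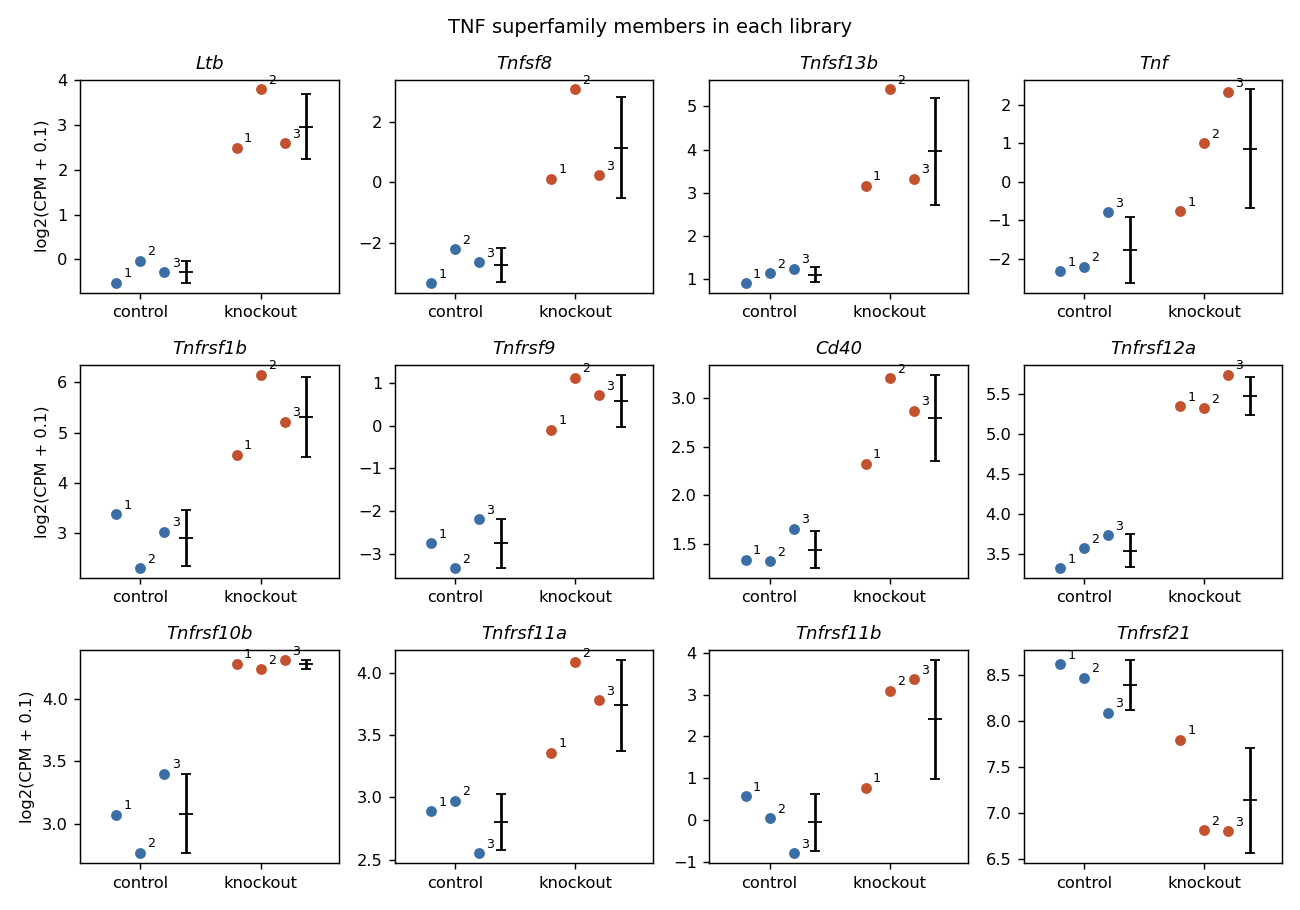
Level of the 11 called members and of Tnf in each library, as log2(CPM + 0.1) on the y axis, with controls in blue, knockouts in orange, replicate numbers beside the points, and the mean ± SD of each group in black. All 12 panels show groups that do not overlap, although in Tnf knockout 1 and control 3 nearly touch, and Tnfsf8 and Tnfsf13b show knockout 2 apart from the other knockouts.

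TNF receptor 2 (Tnfrsf1b, chr4:144803366-144836773, minus strand), which lacks a death domain and is prominent on leukocytes and endothelium, was at 10.3, 4.82 and 8.04 CPM in controls and at 23.5, 71.3 and 37.2 in knockouts. Each knockout lay at more than 2 times the highest control. Its log2 fold change was 2.51 (SE 0.47, adjusted p = 0.030), and from 1.97 to 2.80 with each library left out in turn. TNF receptor 1 (Tnfrsf1a), the widely expressed receptor with a death domain, measured 91.8, 78.0 and 68.0 CPM in controls and 109, 124 and 103 in knockouts. Its groups did not overlap either, but the log2 fold change of 0.50 (SE 0.16) had an adjusted p of 0.067 and was not called, except with library size scaling, with upper quartile scaling (adjusted p = 0.0461) and with DESeq2's Wald test. Within each library the ratio of Tnfrsf1b to Tnfrsf1a, as CPM per kb of exon, was 0.0763, 0.0421 and 0.0805 in controls and 0.146, 0.391 and 0.245 in knockouts. Tnfrsf1a thus remained the more abundant of these receptors per length in every library.

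CD137 (Tnfrsf9, chr4:150288671-150320211, plus strand), a costimulatory receptor induced on activated T and NK cells, had 1, 0 and 2 counts in controls and 17, 41 and 20 in knockouts. The pooled ratio was 26.2, with a 95% counting interval of 8.64 to 129.8, and the fitted log2 fold change was 4.56 (SE 0.76, adjusted p = 0.028), or 5.46 without control 3. Cd40 (chr2:164881127-164898448, plus strand), through which antigen-presenting cells receive T cell help, stood at 2.44, 2.41 and 3.06 CPM in controls and 4.91, 9.08 and 7.20 in knockouts, a log2 fold change of 1.42 (SE 0.32, adjusted p = 0.035). Its ligand Cd40lg, a product of activated helper T cells, had 0, 1 and 1 counts in controls and 10, 29 and 2 in knockouts. The groups of both genes were apart, although knockout 3 had 2 counts of Cd40lg beside 1 in the higher controls.

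Fn14 (Tnfrsf12a, chr17:23812414-23814416, minus strand), the TWEAK receptor induced on injured epithelium and fibroblasts, had the smallest standard error of the called members. It was at 9.95, 11.8 and 13.3 CPM in controls and at 40.6, 39.9 and 53.5 in knockouts, so that the lowest knockout was 3 times the highest control. The log2 fold change was 1.94 (SE 0.19, adjusted p = 0.027), and it ranged from 1.79 to 2.03 with a library left out. Tnfrsf12a overlaps Hcfc1r1 on the opposite strand, and the strand setting of the counting is not given in the sources used here. Hcfc1r1 was at 72.0, 69.0 and 83.0 CPM in controls and 92.2, 67.0 and 93.8 in knockouts and was not called (adjusted p = 0.481). Against its ligand Tnfsf12, whose own level was not called, the receptor per kb of exon stood at 1.05, 1.24 and 0.854 in controls and at 3.79, 3.78 and 4.34 in knockouts.

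Among death domain receptors, 1 of 5 was called higher and 1 lower, beside 10.6% and 6.64% of all genes, with a median log2 fold change of 0.50. Tnfrsf10b (chr14:70167279-70184210, plus strand), the mouse TRAIL receptor that can trigger apoptosis, was at 8.31, 6.70 and 10.4 CPM in controls and at 19.3, 18.8 and 19.8 in knockouts. Its knockouts were nearly level with each other, at 19.3 ± 0.5 CPM (SD, n = 3), against 8.49 ± 1.88 in controls. The log2 fold change was 1.18 (SE 0.21, adjusted p = 0.029). Set against the ligand Tnfsf10 within a library, per kb, Tnfrsf10b was at 0.148, 0.101 and 0.421 in controls and at 0.424, 0.480 and 0.371 in knockouts, groups that overlapped through control 3, where Tnfsf10 was lowest. Fas, the receptor of Fas ligand, was at 14.3 ± 0.432 CPM in controls and 18.9 ± 2.62 in knockouts without a call (log2 fold change 0.40, adjusted p = 0.132), and Fasl had 0, 5 and 2 counts in controls and 6, 28 and 4 in knockouts, with knockout 3 below control 2 in counts. Tnfrsf25, the TL1A receptor of T cells, was at 0.82 (adjusted p = 0.186).

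Death receptor 6 (Tnfrsf21, chr17:43153504-43226137, plus strand) is a death domain receptor studied mostly in neurons and lymphocytes. It was at 394, 356 and 273 CPM in controls and at 223, 112 and 111 in knockouts. Every knockout lay below every control, and knockout 1 was the nearest to them. It fell by 1.20 on the log2 scale (SE 0.32, adjusted p = 0.047). Scaled by library size alone the change was -0.95 with an adjusted p of 0.055, no longer called, and no leave-one-out fit turned its direction (-1.62 to -1.03). Proximal tubule markers were lower in the same libraries: 6 of the 8 on the list were called lower, the list median being -2.13 on the log2 scale. Their summed level was 10550 to 13820 CPM in controls, and knockouts 1 to 3 had 5795, 2145 and 1922. Thick ascending limb markers had 0 of 6 called by edgeR, with sums of 5448 to 11880 CPM in controls and 929 to 6973 in knockouts. Distal convoluted tubule markers had 1 of 6 called lower, at 2615 to 3890 CPM in controls and 2915, 1736 and 462 in knockouts 1 to 3. Collecting duct markers had 0 of 9 called by edgeR, at 1168 to 1523 CPM against 1800, 955 and 779. The part of these tubule lists in the Tnfrsf21 result was not tested.

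**Figure D3:**
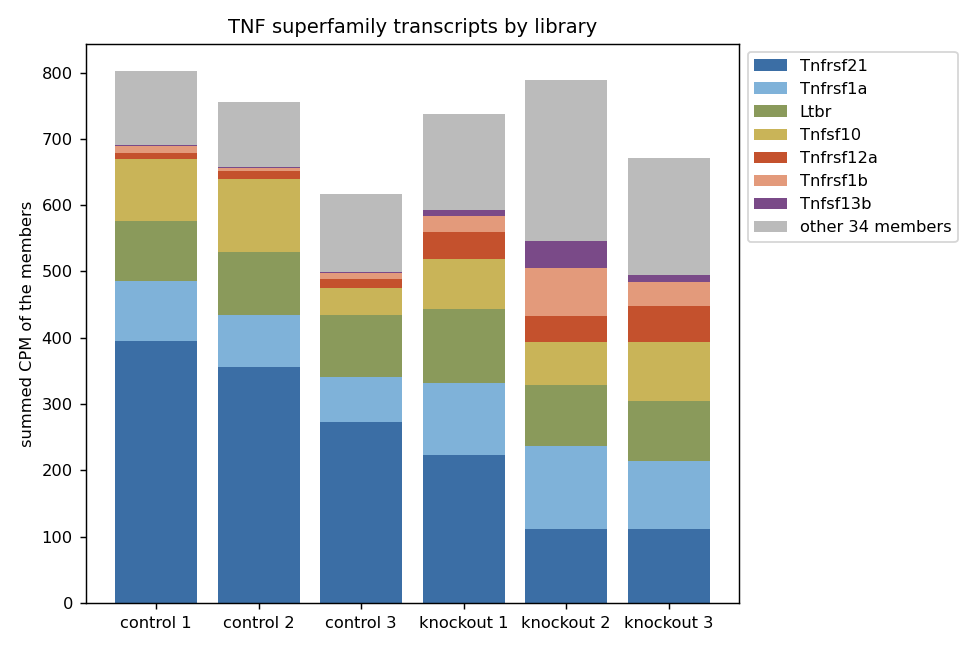
Summed CPM of the 41 members in each library, stacked by gene, with the other 34 members in grey. Bars start at 0, and Tnfrsf21 (dark blue) takes from 44.3% to 49.1% of a control bar and from 14.2% to 30.2% of a knockout bar.

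The make-up of the family's transcripts differed along with Tnfrsf21. Tnfrsf21 held 49.1%, 47.1% and 44.3% of the summed member CPM in controls and 30.2%, 14.2% and 16.6% in knockouts. The sum of all members overlapped between groups, at 803, 756 and 617 CPM in controls and 737, 789 and 671 in knockouts. Without Tnfrsf21 it did not, at 409, 400 and 343 CPM against 514, 677 and 559. Per kb of exon, controls were led by Tnfrsf21 at 94.1 ± 17.1 CPM (SD, n = 3), followed by Ltbr at 39.4 ± 1.04, Tnfrsf1a at 30.5 ± 4.60 and Tnfsf10 at 15.5 ± 6.84. Tnfrsf12a and Tnfsf12 came next at 12.1 ± 1.73 and 12.0 ± 3.61, neighbours whose levels overlapped. In knockouts Tnfrsf12a had the highest mean per kb at 46.4 ± 7.93, but Tnfrsf1a at 43.2 ± 4.18, Ltbr at 41.7 ± 4.90 and Tnfrsf21 at 41.0 ± 17.7 lay within that spread. Tnfsf13b was at 2.11 ± 0.255 CPM per kb in controls and 20.7 ± 19.1 in knockouts. Tnfrsf22 had no exon length and is not in this order.

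RANK (Tnfrsf11a, chr1:107677300-107744558, plus strand), the receptor of RANK ligand best known from osteoclasts, was at 7.31, 7.76 and 5.76 CPM in controls and at 10.2, 16.9 and 13.6 in knockouts. Its log2 fold change of 0.97 (SE 0.26, adjusted p = 0.048) lay close to the threshold and was not called with DESeq2 size factors (adjusted p = 0.0502) or without a filter (adjusted p = 0.0538). Osteoprotegerin (Tnfrsf11b, chr15:54082174-54110039, minus strand), the secreted decoy for the same ligand, was at 1.39, 0.940 and 0.480 CPM in controls and at 1.62, 8.43 and 10.2 in knockouts. Knockout 1 barely exceeded control 1, and the other knockouts lay far above both, with a log2 fold change of 2.82 (SE 0.74, adjusted p = 0.045). Neither of these calls held with limma-voom. The ratio of osteoprotegerin to RANK, per kb, was 0.340, 0.216 and 0.149 in controls. The knockouts were at 0.284, 0.888 and 1.33, overlapping the controls through knockout 1. RANK ligand (Tnfsf11) had 2, 0 and 1 counts in controls and 9, 21 and 2 in knockouts.

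**Figure D4:**
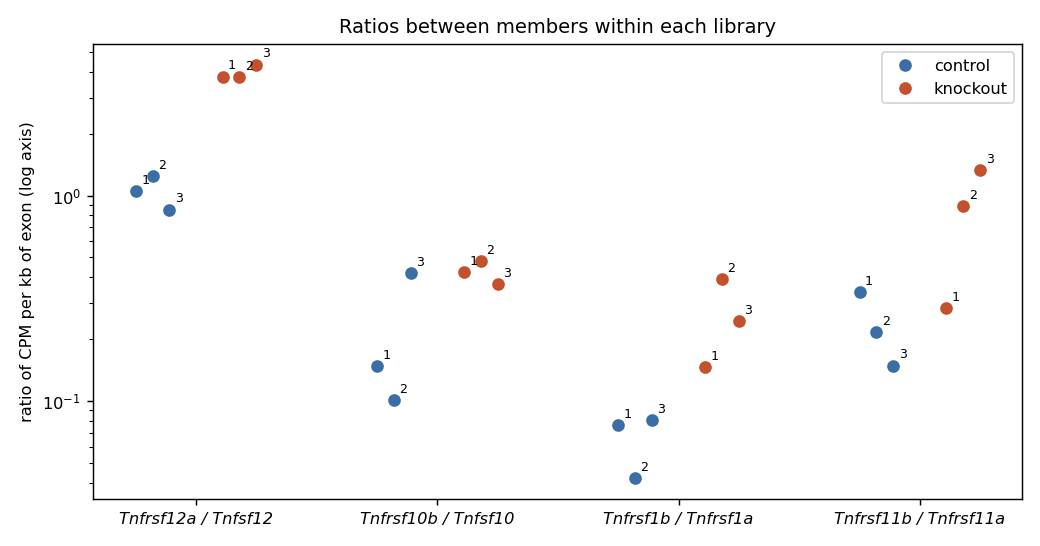
Ratio of pairs of members within each library, computed from CPM per kb of exon, on a log axis, with controls in blue, knockouts in orange and replicate numbers beside the points. The ratios Tnfrsf12a to Tnfsf12 and Tnfrsf1b to Tnfrsf1a separate the groups, the former at 0.854 to 1.24 in controls and 3.78 to 4.34 in knockouts, whereas the other ratios overlap.

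Among receptors that are neither death domain receptors nor decoys, 5 of 12 were called, all higher (10.6% of all genes were), with a median log2 fold change of 1.19. Without Tnfrsf9, which passed the filter through the knockouts alone, 4 of 11 were called and the median was 0.97. Those not called included Tnfrsf14 (HVEM, which binds LIGHT), at 2.29, 1.82 and 0.900 CPM in controls and 3.19, 7.28 and 3.29 in knockouts (1.45, SE 0.50, adjusted p = 0.080), a gene that DESeq2's Wald test called. Its ligand LIGHT (Tnfsf14) had 4, 3 and 3 counts in controls and 21, 37 and 5 in knockouts. The T cell costimulators Tnfrsf4 (OX40), Tnfrsf18 (GITR) and Cd27 were at 0.96, 0.66 and 0.78, with adjusted p-values of 0.179, 0.145 and 0.312. Cd27 was highest in knockout 2, and without that library its value was 0.05. Tnfrsf19 (TROY), an orphan receptor of epithelial progenitors, had a log2 fold change of 1.50 (SE 0.84, adjusted p = 0.228) that came from 1 library. It was at 6.22, 5.64 and 3.36 CPM in controls and 7.21, 33.2 and 2.68 in knockouts, and without knockout 2 the value was -0.03.

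The TRAIL-binding decoys Tnfrsf22 and Tnfrsf23 lie in a cluster on chromosome 7 with Tnfrsf26. Tnfrsf22 was at 21.9 ± 1.99 CPM in controls and 22.0 ± 2.04 in knockouts (SD, n = 3), with a log2 fold change of 0.01 (SE 0.15, adjusted p = 0.978) whose sign changed with the scaling. Tnfrsf23 was at 3.08 ± 0.911 and 5.86 ± 1.08 CPM, a log2 fold change of 0.92 (SE 0.32, adjusted p = 0.084). Both are uncertain, since 82.3% and 78.2% of their 50-base words occur in no other gene and the rest is shared between them. Tnfrsf26 was at 0.60 (adjusted p = 0.192).

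The 12 members outside the count rule were mostly lymphocyte ligands and receptors, and no control exceeded 5 counts for any of them. The highest count in a knockout was 37, for Tnfsf14. Tnfsf18, the GITR ligand, had 2, 0 and 0 counts in controls and 2, 3 and 1 in knockouts. Tnfsf4, the OX40 ligand, was at 0 in all libraries except knockout 2, with 8 counts. Cd70 had 0 of 107901654 counts over the 6 libraries, which allows up to 0.0278 per 1e6 counts. None of the 12 entered the main test.

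Knockout 2 held the highest CPM for 28 of the 40 members with any count, and for 17 of the 28 tested. How many of all genes were highest in that library was not counted, so these numbers have no background. The same library was highest for the summed markers of macrophages, dendritic, T, NK and B cells and neutrophils. Macrophage markers had 9 of 10 called higher, at 179 to 192 CPM in controls and 437, 1376 and 561 in knockouts 1 to 3. T cell markers had 7 of 10 called higher, at 7.12 to 10.3 CPM against 29.4, 83.5 and 27.4, and dendritic cell markers 5 of 6, at 13.8 to 15.9 against 36.1 to 88.3. B and plasma cell markers had 1 of 7 tested called higher, with sums of 8.56 to 20.4 CPM in controls and 25.5, 353 and 31.0 in knockouts. Most of the knockout sums came from Jchain, which edgeR did not call (adjusted p = 0.073). It was at 1.69, 6.64 and 11.35 CPM in controls and 17.03, 313 and 16.85 in knockouts. NK markers had 0 of 2 tested called by edgeR, at 1.76 to 2.28 CPM against 2.84 to 9.84, and neutrophil markers 0 of 3, at 4.28 to 9.55 against 4.81 to 19.0. The defining marker Ly6g of neutrophils was near 0 in every library, at 0.153 CPM or less.

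Fibroblast markers had 4 of 8 called higher, with sums of 361 to 689 CPM in controls and 1060 to 4100 in knockouts, knockouts 2 and 3 being equally high. Those called were Col1a1, Col1a2, Col3a1 and Acta2, while Pdgfra, Pdgfrb, Dcn and Postn were not called. Endothelial markers had 0 of 8 called by edgeR, at 544 to 1028 CPM against 977 to 1139. Called markers of macrophages, dendritic cells, T cells and fibroblasts thus rose in the same comparison as all 10 members called higher. The part of these cell types in the results of those members was not tested.

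**Figure D5:**
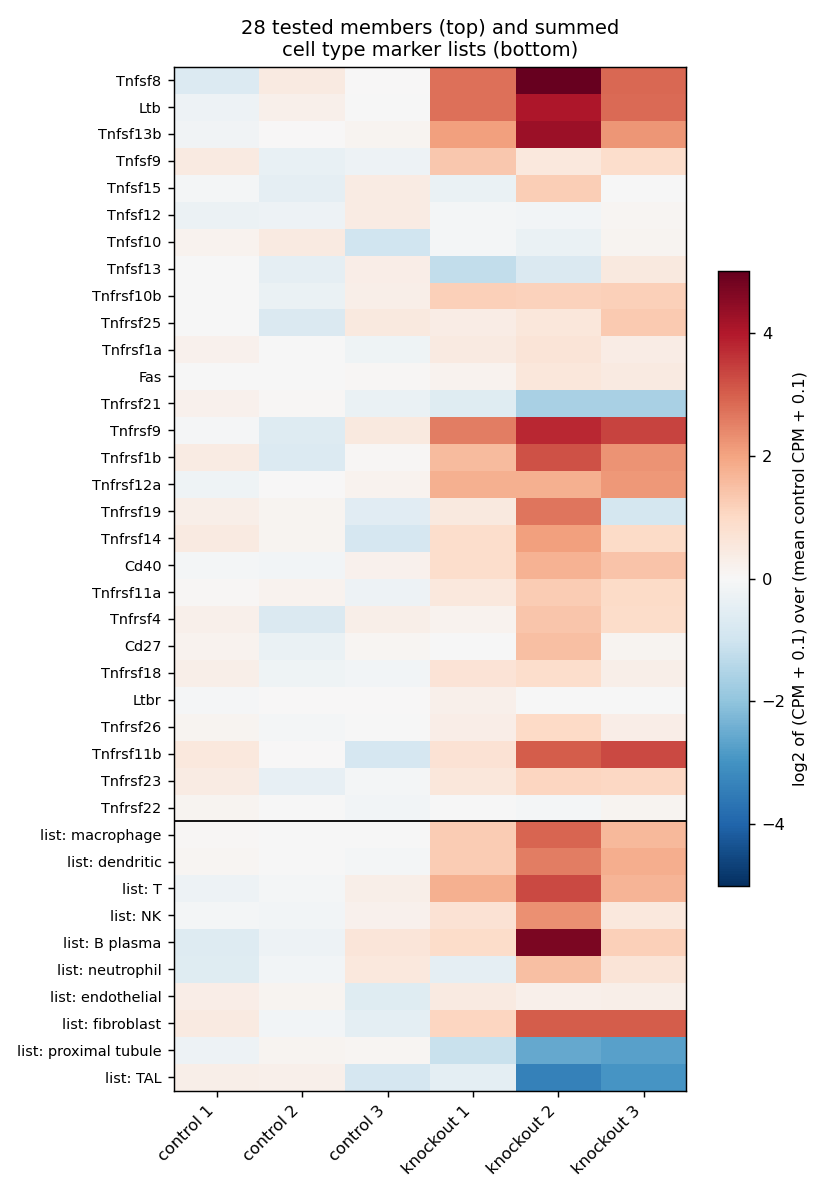
Colour map of log2 of the CPM + 0.1 of each library over the mean control CPM + 0.1, for the 28 tested members above the line and the summed CPM of 10 cell type marker lists below it. Columns are the 6 libraries, and red is above the control mean. The deepest red of Tnfsf8, Ltb and Tnfsf13b and of the B and plasma, T and macrophage lists is in knockout 2, and Tnfrsf21 and the proximal tubule list are blue in all 3 knockouts.

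Genes of the pathway outside the family numbered 70 on 4 lists, of which 67 were tested, 25 called higher and 4 lower, counts to be read beside 10.6% and 6.64% of all genes. Over the 65 with 10 counts in some control, 23 were called higher and 4 lower. Among receptors and ligands related to the family, 2 of 5 were called higher. Eda2r, the receptor of ectodysplasin A2, was at 1.24, 0.529 and 0.900 CPM in controls and 5.69, 9.18 and 6.74 in knockouts (log2 fold change 3.00, SE 0.41, adjusted p = 0.027). Relt, an orphan receptor of lymphoid tissue, was at 2.69 (SE 0.55, adjusted p = 0.032). Ngfr and Eda, the others with the highest levels, were at 2.11 (adjusted p = 0.060) and 0.65 (adjusted p = 0.195). Edar, the receptor of ectodysplasin A1 and the last of the list, was at 3.98, 2.70 and 2.04 CPM in controls and 1.28, 0.953 and 0.306 in knockouts, with every knockout below every control and no call (-1.74, SE 0.53, adjusted p = 0.063).

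Of 21 sheddases, adaptors and death effectors, 5 were called higher and 1 lower, with a median of 0.35. Ripk3 and Mlkl, the kinase and the executor of necroptosis, rose by 1.94 (SE 0.48, adjusted p = 0.041) and 1.54 (SE 0.34, adjusted p = 0.033). Ripk3 was at 2.19, 1.59 and 2.28 CPM in controls and 3.39, 8.18 and 11.9 in knockouts. Birc3 (cIAP2), a ubiquitin ligase of TNF receptor complexes and itself an NF-kB target, rose by 1.72 (SE 0.23, adjusted p = 0.027), from 12.1 to 14.8 CPM in controls to 31.4 to 54.2 in knockouts. Bid, which links caspase-8 to mitochondria, fell by 0.90 (SE 0.23, adjusted p = 0.042). Cflar, the caspase-8 inhibitor, and Adam10, a sheddase, were the most abundant without a call, at -0.20 (adjusted p = 0.382) and 0.52 (adjusted p = 0.099).

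The NF-kB list had 8 of 24 called higher and 1 lower, with a median of 0.18. The members with the largest changes were Nfkbie (2.23, SE 0.29, adjusted p = 0.027), Relb (1.92, SE 0.25, adjusted p = 0.027), Tnfaip3 (1.71, SE 0.29, adjusted p = 0.029) and Bcl3 (1.52, SE 0.23, adjusted p = 0.028). Relb, the transcription factor of the alternative pathway, was at 9.40, 7.46 and 10.4 CPM in controls and 25.3, 33.9 and 44.4 in knockouts. Nfkbie is an inhibitor of NF-kB dimers, Tnfaip3 (A20) a ubiquitin-editing brake on the pathway and Bcl3 a nuclear coregulator. Tab2 and Ikbkb, the most abundant without a call, were at 0.04 (adjusted p = 0.853) and 0.16 (adjusted p = 0.419). The gene that fell, Chuk (IKK alpha, a kinase of the alternative pathway), was at -1.05 (SE 0.24, adjusted p = 0.036).

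Of 20 genes induced by TNF in many cell types, 17 were tested, 10 called higher and 2 lower, with a median log2 fold change of 1.75. Ccl20 and Cxcl2 had 10 counts in no control and passed the filter through the knockouts alone, and over the 15 others 8 were called higher and 2 lower, with a median of 1.63. Ccl20, a chemokine for CCR6 cells, had 0 counts in controls and 25, 49 and 13 in knockouts, at least 29.2-fold higher against a floor of 3 counts over the control group, and the list median is the same with Ccl20 at that bound. Cxcl2, a neutrophil chemokine, had 0, 1 and 4 counts in controls and 19, 48 and 33 in knockouts (log2 fold change 4.26, SE 0.88, adjusted p = 0.032). Ccl2, a monocyte chemokine, and the adhesion molecule Vcam1 rose by 3.79 (SE 0.50, adjusted p = 0.027) and 3.62 (SE 0.33, adjusted p = 0.027). Vcam1 was at 14.8, 11.3 and 11.7 CPM in controls and 98.8, 223.7 and 142 in knockouts. Tnfaip8 and Sod2 went the other way, falling in all 3 knockouts. Tnfaip8 changed by -1.66 (SE 0.35, adjusted p = 0.033) and Sod2, mitochondrial superoxide dismutase, by -1.38 (SE 0.35, adjusted p = 0.043). Tnfaip2 and Ier3, the most abundant without a call, were at 0.48 (adjusted p = 0.186) and 0.83 (adjusted p = 0.095).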

How the data were processed

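Kidney RNA of 3 control and 3 TfR1KO;KspCre mice was sequenced by the study. Each group had 1 deposited table of raw counts by gene, not normalized. Per the labels and the study's methods, the authors called bases with CASAVA 1.8.2, trimmed with Trimmomatic, aligned to mm9 with TopHat2 2.0.11 and counted with HTSeq (annotation and strand setting not given in the sources used here). Unique mapping lowers counts of genes with near copies. Depth was 11501053 to 21001341 counts per library, and intervals and floors (3 counts) cover counting error only.

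Counts were analysed in R 4.3.3 with edgeR 4.0.16: filterByExpr (minimum count 10, total 15), TMM, and the quasi-likelihood test over all 6 libraries without covariates, fitted on the whole table and adjusted by Benjamini-Hochberg. A call is an adjusted p under 0.05. The SE is the size of the log2 fold change over the square root of F. Scripts were tested on simulated data. Alternatives were DESeq2 1.42.0 and limma 3.58.1 (voom), other scalings and filters, each library left out, and a replicate block.

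Called members and their partners are given by library, the rest by range. Each pathway list names up to 4 called genes with the largest change and the 2 most abundant not called. Members and lists were chosen with earlier results of these data known. Coordinates, exon lengths and overlaps are from GENCODE M1 (mm9), which 20608 of 24422 gene names matched once. Promoter sequences are RefSeq's.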

Additional observations from a re-analysis of the deposited data

How the results depend on the processing

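The replicate numbers, which the labels give to both groups, did not pair the libraries: the correlations of same-numbered deviations from the group means were -0.13, 0.01 and 0.22. With a replicate block, 0 members were called, 0 pathway genes and 0 genes in all by edgeR, while 15 of 28 members had an unadjusted p under 0.05, 14 of them higher, beside 35.8% of all genes, and 13 of the 26 with 10 counts in some control. With each library left out, called members ranged from 0 to 13, pathway genes from 0 to 38 and all genes from 0 to 5332, the fit with 2 libraries in an arm having fewer samples. All genes called were 4882 with DESeq2's Wald test and 5034 at an adjusted p under 0.1. Under the other scalings, filters, tests and thresholds 8 to 14 members were called. Limma-voom lost Tnfrsf11a, Tnfrsf11b and Tnfsf13b, and DESeq2's Wald test added Tnfrsf14, Tnfrsf1a and Tnfrsf23. The cause of these differences was not tested.

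Sign changes occurred only in members that were not called. Tnfrsf22 was at -0.01159 with DESeq2 size factors, -0.007965 without a filter, -0.01427 with the Wald test and -0.01092 with limma-voom. Tnfsf10 was at 0.19 with library size alone and 0.01987 with limma-voom, and Tnfsf12 at 0.0277 with upper quartile scaling and 0.23 with library size alone. With a library left out, ranges that crossed 0 were -0.06936 to 0.06261 for Tnfrsf22, -0.42 to 0.18 for Tnfsf10, -0.18 to 0.23 for Tnfsf12, -0.02694 to 0.1346 for Ltbr, -0.02607 to 1.99 for Tnfrsf19 and -0.16 to 0.73 for Tnfsf15. Depth limits the members under 10 counts.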
